A study of Mus musculus with 2 samples.

Results

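The genes described here are the nuclear genes of the mitochondrial respiratory chain and of ATP synthase. They were chosen by symbol among the protein-coding autosomal genes of the mm10 annotation: those starting Nduf, Uqcr or Atp5, the Cox4 to Cox8 subunits, and Sdha, Sdhb, Sdhc, Sdhd, Cyc1 and Cycs. The rule took 93 of 20807 autosomal protein-coding genes, under 92 symbols, because Atp5o is listed under 2 gene identifiers. Placed by symbol, 44 were genes of complex I, with 7 for core subunits, 29 counted as accessory and 8 for assembly factors. The accessory group took every other Nduf symbol, also Ndufa4 and its relative Ndufa4l2, which are described with the isoforms of complex IV below. A further 4 encode complex II, 9 complex III, 1 cytochrome c, 17 complex IV and 18 ATP synthase. Another 3 genes with a matching symbol, Ndufa1, Ndufb11 and Cox7b, lie on the X chromosome and were not taken.

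The data are DNase-seq of urinary bladder from male B6CASTF1/J mice 14 days old, the F1 hybrids of C57BL/6J and CAST/EiJ. There is 1 group with 2 libraries, so that no conditions can be compared and no test was made. Replicate 1 is labelled as coming from a male, and replicate 2 from a pool of 3 males. DNase I cuts DNA where chromatin is open, and a peak marks a stretch with many cuts. Its signal is a density that the authors deposited with each peak. A footprint is a short stretch within open chromatin that was cut less than its surroundings. In bulk tissue, fewer cells of a type and less open chromatin per cell cannot be told apart.

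Complexes I and II pass electrons from NADH and succinate to ubiquinone, complex III passes them on to cytochrome c, and complex IV passes them to oxygen. Complexes I, III and IV pump protons while they do so, and ATP synthase lets the protons return and makes ATP. Most subunits are encoded in the nucleus, and their promoters are known for sites of NRF1, of ETS factors such as GABPA, and of the ERR nuclear receptors. Several subunits of complex IV exist as a widely used isoform and as an isoform known from muscle, lung or testis.

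The promoters below are shown because they hold both a motif linked to respiratory genes and footprints that the replicates share. Each runs from 200 bases before to 30 bases from the RefSeq start site, read 5′ to 3′ on the gene's strand in GRCm38.p6, the build mm10. Capitals mark bases that lay in footprints of both replicates. The letters are those of the reference, and the CAST/EiJ allele of these hybrids was not analysed here. Cycs encodes somatic cytochrome c (chr6:50566540-50566769, minus strand), Cox6a1 the widely used subunit VIa of complex IV (chr5:115348929-115349158, minus strand) and Ndufa8 an accessory subunit of complex I (chr2:36049309-36049538, minus strand). Sdha encodes the flavoprotein of complex II (chr13:74350211-74350440, minus strand), Uqcrfs1 the Rieske iron-sulfur protein of complex III (chr13:30545287-30545516, minus strand) and Atp5c1 the gamma subunit of ATP synthase (chr2:10080403-10080632, minus strand).
Cycs: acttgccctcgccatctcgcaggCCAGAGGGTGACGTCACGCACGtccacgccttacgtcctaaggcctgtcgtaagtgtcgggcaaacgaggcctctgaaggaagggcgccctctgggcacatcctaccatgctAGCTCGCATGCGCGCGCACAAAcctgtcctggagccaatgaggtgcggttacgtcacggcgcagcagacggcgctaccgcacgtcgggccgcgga
Cox6a1: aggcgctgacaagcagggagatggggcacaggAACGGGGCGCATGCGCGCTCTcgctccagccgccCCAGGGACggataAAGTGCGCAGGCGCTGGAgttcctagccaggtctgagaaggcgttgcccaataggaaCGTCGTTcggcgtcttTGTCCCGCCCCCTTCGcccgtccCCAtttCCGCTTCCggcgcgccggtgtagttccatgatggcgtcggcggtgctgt
Ndufa8: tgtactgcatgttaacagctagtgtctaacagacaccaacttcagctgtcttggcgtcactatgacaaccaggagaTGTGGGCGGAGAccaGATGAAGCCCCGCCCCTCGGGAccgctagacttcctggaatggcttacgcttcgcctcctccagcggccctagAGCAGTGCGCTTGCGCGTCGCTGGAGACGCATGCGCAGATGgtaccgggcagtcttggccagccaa
Sdha: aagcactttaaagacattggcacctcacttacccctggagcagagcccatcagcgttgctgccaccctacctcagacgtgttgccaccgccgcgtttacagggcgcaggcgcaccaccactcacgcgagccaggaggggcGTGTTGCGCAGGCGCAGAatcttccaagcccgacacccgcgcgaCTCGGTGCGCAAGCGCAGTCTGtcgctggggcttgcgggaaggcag
Uqcrfs1: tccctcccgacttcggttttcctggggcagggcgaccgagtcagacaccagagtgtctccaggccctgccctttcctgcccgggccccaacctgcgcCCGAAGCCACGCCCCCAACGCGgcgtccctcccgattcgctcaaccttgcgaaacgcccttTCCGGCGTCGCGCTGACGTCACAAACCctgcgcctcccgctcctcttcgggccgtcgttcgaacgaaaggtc
Atp5c1: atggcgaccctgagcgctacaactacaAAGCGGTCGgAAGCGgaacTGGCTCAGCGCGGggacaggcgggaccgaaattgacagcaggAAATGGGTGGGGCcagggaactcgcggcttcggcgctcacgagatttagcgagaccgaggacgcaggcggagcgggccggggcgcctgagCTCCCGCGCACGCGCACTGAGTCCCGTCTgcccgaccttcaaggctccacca

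In these sequences the RefSeq start base is position 0 and bases before it are negative. The Cycs promoter held the CRE letters TGACGTCA at positions -169 to -162 and the NRF1 core CGCATGCG at positions -61 to -54, and all 8 bases of each lay in a shared footprint. Between these footprints no base was covered. In Cox6a1 the NRF1 core at -161 to -154 and the looser match CGCAGGCG at -116 to -109 were both covered, as was an SP1/KLF match at -44 to -39. Ndufa8 held CGCATGCG at -9 to -2 and CGCTTGCG at -29 to -22, and 1 footprint of 41 bp covered both. Sdha had no exact NRF1 core but held CGCAGGCG at -54 to -47 and CGCAAGCG at -9 to -2, both covered. A further CGCAGGCG of Sdha, at -97 to -90, was not covered. Uqcrfs1 carried a covered TGACGTCA at -29 to -22, and Atp5c1 a covered CGCACGCG at -16 to -9 beside a CGCAGGCG at -51 to -44 that was not covered. A match is a description of letters and does not show which protein was bound.

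A gene was called open when overlapping peaks of both replicates lay within 1 kb of any of its annotated transcription start sites (TSSs). Of the 93 genes 87 were open, or 93.5%, while 67.5% of all autosomal protein-coding genes were. With the stricter deposited peak lists 86 were open against a background of 63.1%, the gene lost being Ndufa4l2. Replicate 1 alone had a promoter peak at 87 of them (background 71.8%) and replicate 2 at 88 (background 68.3%). The gene added in replicate 2 was Cox7b2. Every gene of complexes I, II and III and cytochrome c was open, as were 12 of 17 of complex IV and 17 of 18 of ATP synthase. The mitochondrial ribosomal genes, another nuclear-encoded mitochondrial list, were open in 78 of 78 cases, and the cytosolic ribosomal genes in 78 of 88.

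The signal of a gene is that of its strongest shared peak within 1 kb. Over the 87 open genes its median was 7.91 in replicate 1 and 6.60 in replicate 2, and 7.31 for the mean of both. All 14048 open autosomal genes had medians of 5.13, 4.30 and 4.74. The middle 50% of the respiratory genes lay between 5.41 and 8.90, and that of all open genes between 2.22 and 7.91. The respiratory genes were thus few at the bottom of the range, with 2 in the lowest 25% of all open genes. They were not collected at the very top, as 37 were in the highest 25% and 6 in the highest 10%. Their median lay between those of the mitochondrial ribosomal genes, 5.81, and the cytosolic ribosomal genes, 7.97.

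**Figure D1:**
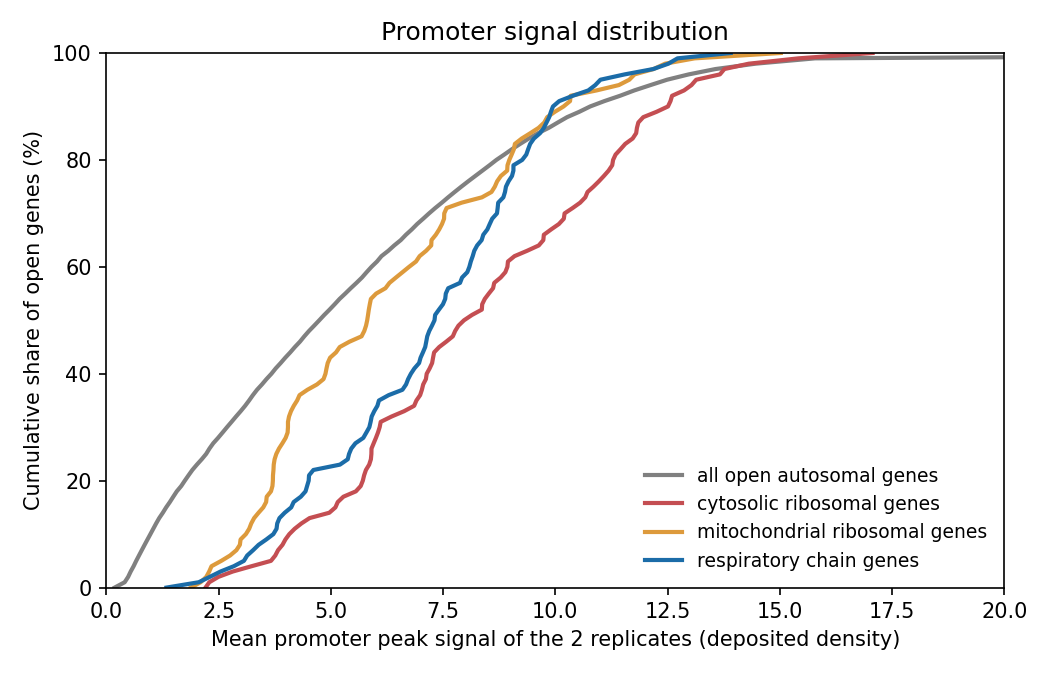
Cumulative share of open genes (y axis, %) against the mean promoter peak signal of both replicates (x axis, deposited density) for 4 gene lists. The curve of the respiratory chain genes starts to the right of that of all open genes, with medians of 7.31 and 4.74, and meets it near the top of the range.

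The unscaled signals of single genes differed between the replicates with a median SD of 0.795. This SD includes the offset between the libraries, as replicate 1 was higher in 73 of 87 open genes. It therefore does not show whether neighbours in the order by signal can be separated, which was not tested. Among the complexes the medians were 7.50 for complex I, 7.52 for complex II, 5.43 for complex III, 6.40 for the open genes of complex IV and 7.31 for those of ATP synthase. The ranges overlapped throughout. Complex III ran from 3.41 to 11.9 and complex I from 1.34 to 12.5. The value of 1.34 was that of Ndufa4l2, placed in complex I by symbol alone, and the next was Ndufc2 with 2.17.

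**Figure D2:**
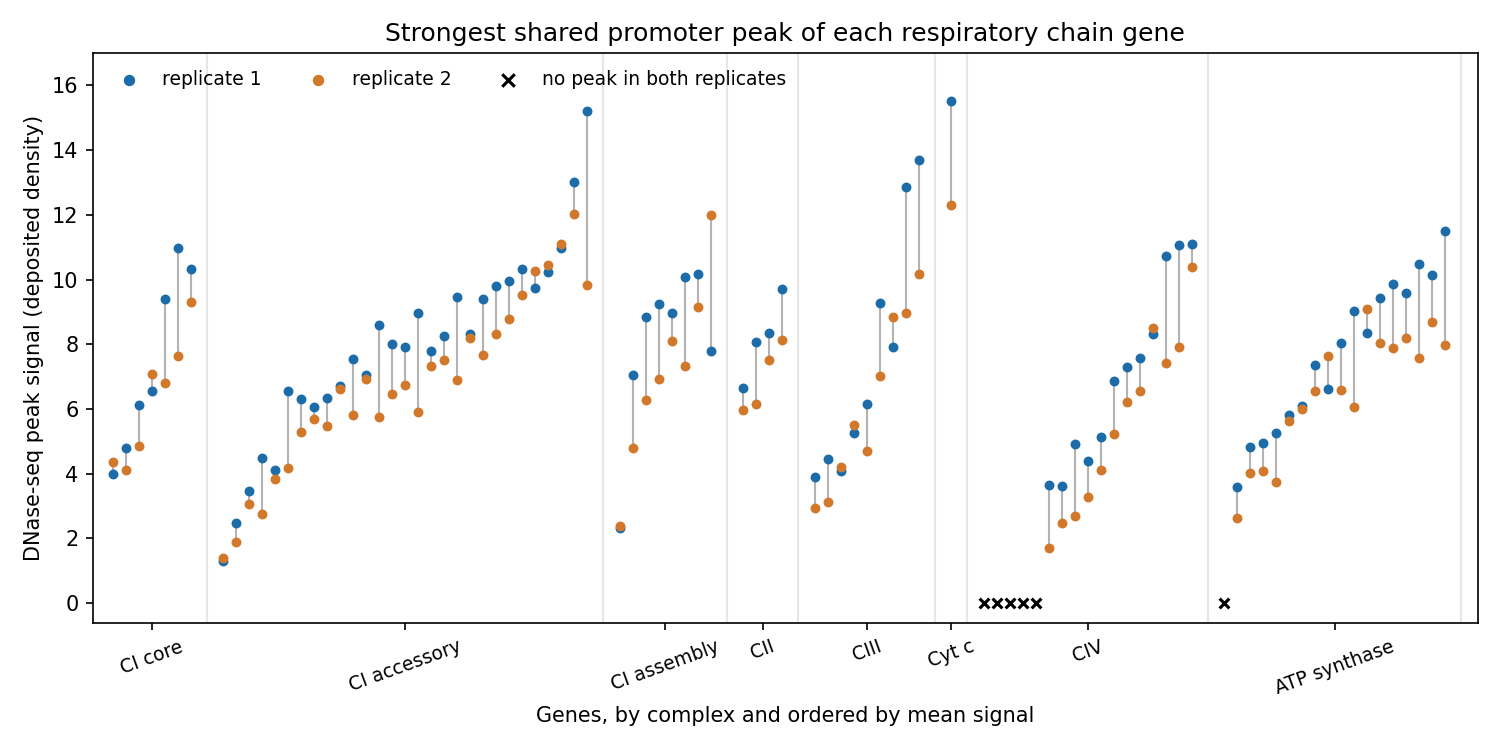
Promoter peak signal (y axis, deposited density) of each of the 93 genes in replicate 1 and replicate 2, joined by a line, by complex and ordered by mean signal; crosses at 0 mark genes without a peak in both replicates. The 6 crosses fall in complex IV and ATP synthase, and Cycs has the highest mean, 13.9.

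The core subunits of complex I carry the electron path from NADH to ubiquinone. Ndufs1, the largest subunit of the electron-input arm, had 10.98 in replicate 1 and 7.64 in replicate 2, or 9.31 ± 2.36 (SD, n = 2), at a region that it shared with Eef1b2. Ndufv1, which binds NADH and FMN, had 9.39 and 6.80, and Ndufs7, a carrier of the last iron-sulfur cluster, 6.57 and 7.08. The lowest were Ndufs3 with 4.004 and 4.36 and Ndufs8, another iron-sulfur subunit, with 4.79 and 4.12. These 2 stood below the other 5 in both replicates, the nearest being Ndufv2, partner of Ndufv1, with 6.13 and 4.87.

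The accessory subunits surround that core and are needed for its assembly and stability. Ndufv3, which has a short and a long splice form, had 15.2 in replicate 1 and 9.84 in replicate 2. In unscaled signal this was the widest spread of all the genes, 12.5 ± 3.80 (SD, n = 2). Ndufv3 was the highest accessory gene in replicate 1, whereas Ndufa13, Ndufa7, Ndufb5 and Ndufa8 were above it in replicate 2. Ndufa13, known also as GRIM-19, had 13.01 and 12.02, at a region centred at -752.5 bp from its start. The region over the start of Ndufa13 itself was weak, with 0.869 and 1.08, while another inside the gene, centred at 867.5 bp, had 10.5 and 9.12. Ndufa7 had 10.98 and 11.1, and Ndufb5 10.3 and 10.4. The strongest regions of these 4 genes also lay at the starts of other genes. They were shared with Wdr4 for Ndufv3, with Tssk6 and Yjefn3 for Ndufa13, with the ribosomal gene Rps28 for Ndufa7 and with the mitochondrial ribosomal gene Mrpl47 for Ndufb5. The lowest of this group were Ndufa4l2, counted here by its symbol, with 1.30 and 1.38, and Ndufc2, with 2.46 and 1.89. They were also the 2 genes in the lowest 25% of all open genes. Ndufab1, the mitochondrial acyl carrier protein, stood above them with 3.46 and 3.07.

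Between these ends lay accessory subunits of every arm of the enzyme. Ndufa8, with footprints over both NRF1-like matches, had 9.74 in replicate 1 and 10.3 in replicate 2. Ndufc1, a small membrane subunit, had 10.3 and 9.51. Ndufs4, known for the Leigh-like disease of mice that lack it, had 8.97 and 5.92. Ndufa9 and Ndufa10, both known for nucleotide-binding folds, had 8.01 and 6.48, and 7.06 and 6.94. Ndufs6, a zinc-binding subunit at a promoter shared with the mitochondrial ribosomal gene Mrpl36, had 6.07 and 5.68. The membrane-arm subunit Ndufb3 had 4.10 and 3.83 and Ndufa3 had 4.48 and 2.75, so that the Ndufa and Ndufb families each held both strong and weak promoters.

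The Nduf symbols also take in 8 assembly factors, which help to build complex I and are not part of the finished enzyme. All 8 were open, with a median signal of 8.31. Ndufaf8 had 7.79 in replicate 1 and 11.98 in replicate 2, at a region shared with the divergent gene Tepsin. Ndufaf4 had 10.2 and 9.14, Ndufaf5 10.1 and 7.33, and Ndufaf2 8.98 and 8.11. Ndufaf1, which binds early membrane-arm intermediates, was lowest with 2.32 and 2.39, and Ndufaf6 followed with 7.06 and 4.80.

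All 4 genes of complex II, the succinate dehydrogenase that also serves the citric acid cycle, were open and lay close together. Sdhb, the iron-sulfur subunit, had 9.71 in replicate 1 and 8.13 in replicate 2. Sdha, whose promoter is printed above, had 8.36 and 7.50. The membrane anchors Sdhc and Sdhd had 8.08 and 6.16, and 6.63 and 5.96. Replicate 1 was higher for each of them. Divergent genes that started within 1 kb included Ccdc127 beside Sdha and Timm8b, an import chaperone of the mitochondrial intermembrane space, beside Sdhd.

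In complex III the signals of single genes spread widely. Uqcrq, a small subunit next to cytochrome b, had 13.7 in replicate 1 and 10.2 in replicate 2. That region, chr11:53430901-53431260, was centred at -249.5 bp from the start of Uqcrq and was shared with Gdf9, an oocyte growth factor gene. Among the open genes its start lay farthest from a shared region, at 70 bp. Uqcrfs1 had 12.9 and 8.98, at a region over its own start. The hinge protein gene Uqcrh had 7.91 and 8.83, and the core protein gene Uqcrc1 9.27 and 7.03. The small subunits Uqcr10 and Uqcr11 had 6.16 and 4.70, and 5.26 and 5.50, and Uqcrc2, the second core protein gene, 4.07 and 4.20. The values of Uqcrc2 were thus below those of Uqcrc1 in both replicates. At the low end Uqcrb had 3.88 and 2.93, and Cyc1, the cytochrome c1 gene, 4.47 and 3.11. Cycs, whose product carries electrons from complex III to complex IV, had the highest mean of all the genes with 15.5 and 12.3, at chr6:50566501-50566760. That placed it at percentile 97.4 of all open genes. Cyct, the testis form of cytochrome c, is outside the rule, and neither replicate had a peak at its start.

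In complex IV the isoform genes accounted for all 5 genes that were not open. The widely used Cox6a1 had 11.1 in replicate 1 and 10.4 in replicate 2, whereas its heart and skeletal muscle form Cox6a2 had no promoter peak. Cox8a had 8.31 and 8.50, whereas neither the muscle form Cox8b nor the testis form Cox8c had a peak. Cox4i1 had 6.86 and 5.24, whereas Cox4i2, known from lung and oxygen sensing, had none. Cox7b2 was not open either, having a peak in replicate 2 alone with a signal of 0.192. Its widely used partner Cox7b is X-linked and had 2.57 and 1.07.

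The nuclear subunits of complex IV without such a partner were all open. Cox5b, a matrix-side subunit that binds zinc, had 11.1 in replicate 1 and 7.91 in replicate 2. Cox6c, a membrane subunit, had 10.7 and 7.41. Cox5a, which lies against the matrix side of the core, had 7.30 and 6.20. Cox7c, a small membrane subunit, was the lowest of the 4 with 3.61 and 2.48, below the others in both replicates.

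The remaining restricted isoforms were open, with signals below those of their widely used forms in both replicates. Cox7a2, the widely used form, had 7.56 in replicate 1 and 6.56 in replicate 2, and the heart and skeletal muscle form Cox7a1 had 4.91 and 2.68. The related Cox7a2l, a supercomplex factor, had 5.13 and 4.11. Cox6b1 had 4.39 and 3.27, and the testis form Cox6b2 3.64 and 1.72, so that Cox6b2 was below Cox6b1 in each replicate, although the SDs of their means overlapped. Ndufa4, whose product is now known to associate with complex IV although its symbol places it in complex I, had 6.33 and 5.46. Its hypoxia-induced relative Ndufa4l2 had 1.30 and 1.38. Over these sets all 6 widely used genes were open, with mean signals of 3.83 to 10.7. Of 8 restricted genes 3 were open, with mean signals of 1.34 to 3.79, and 5 were not. The ranges nearly met, as Cox7a1 was above Cox6b1 in replicate 1 and below it in replicate 2.

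**Figure D3:**
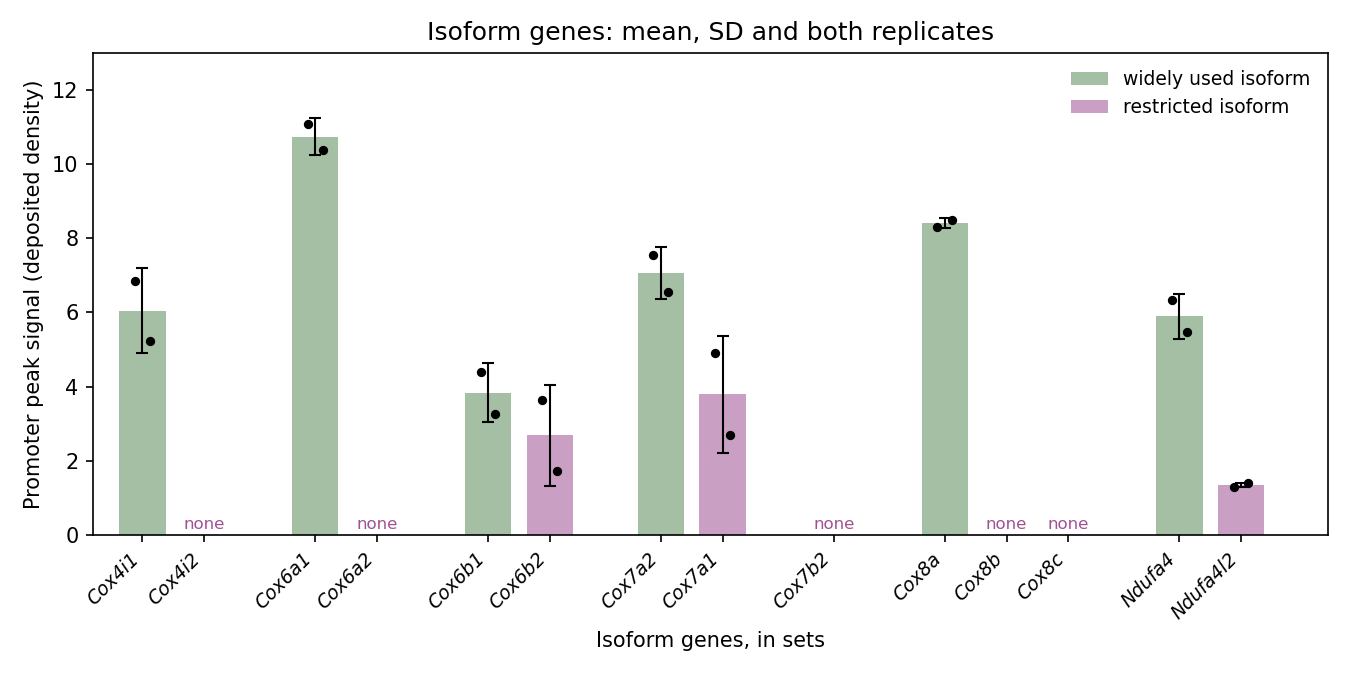
Promoter peak signal (y axis, deposited density) of the isoform genes in sets along the x axis; bars are means, error bars the SD of 2 replicates and points the replicates, and "none" marks genes without a peak in both. Every widely used gene has a bar, 5 of the 8 restricted genes have none, and the bars of Cox6b1 and Cox6b2 overlap within their SD.

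The isoform pairs with a RefSeq promoter for both genes also differed in promoter sequence. The observed to expected ratio of CpG dinucleotides was 0.842 for Cox8a and 0.115 for Cox8b, and 0.833 for Cox7a2 and 0.333 for Cox7a1. Cox6b2 had 0.432 and Cox6b1 0.807. Cox7b2, which was not open, had 0.564, above the open Cox6b2 and Cox7a1. The median over the open respiratory genes with a RefSeq promoter was 0.833. The promoters of Cox8a (chr19:7217587-7217816, minus strand), Cox8b (chr7:140900417-140900646, minus strand) and Cox7a1 (chr7:30183971-30184200, plus strand) are shown to set an open gene beside a gene that was not open, and beside a muscle isoform that was open. Span, strand and capitals are as above.
Cox8a: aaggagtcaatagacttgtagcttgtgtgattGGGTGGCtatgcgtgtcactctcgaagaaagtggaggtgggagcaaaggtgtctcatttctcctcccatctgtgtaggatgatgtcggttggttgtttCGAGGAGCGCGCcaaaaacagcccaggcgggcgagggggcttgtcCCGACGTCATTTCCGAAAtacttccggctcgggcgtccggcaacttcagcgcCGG
Cox8b: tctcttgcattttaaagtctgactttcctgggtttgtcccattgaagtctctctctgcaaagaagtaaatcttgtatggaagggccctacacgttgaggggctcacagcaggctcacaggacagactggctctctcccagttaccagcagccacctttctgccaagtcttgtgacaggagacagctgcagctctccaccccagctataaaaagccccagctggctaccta
Cox7a1: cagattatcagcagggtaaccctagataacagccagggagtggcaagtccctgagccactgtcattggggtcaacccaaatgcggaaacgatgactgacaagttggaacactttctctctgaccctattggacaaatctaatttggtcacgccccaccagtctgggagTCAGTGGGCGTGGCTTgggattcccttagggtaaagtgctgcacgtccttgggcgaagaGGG

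The Cox8a promoter had 40 bases in shared footprints, among them a covered CGTCA at -21 to -17, the reverse complement of the shorter CRE core. Cox8b had 0 such bases, and its only match to the motifs searched was TATAAA at positions 4 to 9. Cox7a1 had 19, most of them in a footprint of 16 bp over the letters TCAGTGGGCGTGGCTT, which hold none of the motifs searched.

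Since Cox7a1, Cox6a2 and Cox8b are known from striated muscle, markers of other cell types were read in the same way. All 5 smooth muscle markers were open, with mean signals of 0.885 to 2.78, as were 3 of 3 stromal markers and 5 of 6 urothelial ones, Krt20 having a peak in replicate 1 alone. Of 8 striated muscle markers 5 were open, Ckm at 3.37, Actn2 at 1.96, Ryr1 at 1.06, Tnni3 at 0.850 and Acta1 at 0.486. The other 3, Myod1, Myh6 and Tnnt2, had no peak. Of 5 germ cell markers 1 was open, Dazl at 4.49. Of 4 markers of brown fat and fat 2 were open, Plin1 at 1.54 and Cidea at 0.989. Ucp1 had a peak in replicate 1 alone, and Adipoq had none. The part of other cell types in the signals of Cox7a1 and Cox6b2 was not tested.

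The 6 genes that were not open were examined in the authors' track of false discovery rates (FDR), which lists stretches with an FDR under 0.05. Within 1 kb of their starts replicate 1 had no such stretch for any of the 6. Replicate 2 had 109 bp at Cox7b2, down to an FDR of 0.0190, and 6 bp at Cox6a2, down to 0.0487. The nearest shared regions lay 1914 bp from Cox6a2, 2365 bp from Cox7b2, 2895 bp from Cox8b, 11433 bp from Cox4i2 and 13276 bp from Cox8c. No open gene came near the limit of 1 kb, since the farthest was Uqcrq at 70 bp, and 84 of the open genes had a shared region over a start. The remaining gene was the second Atp5o identifier (ENSMUSG00000116933), whose nearest shared region, 4539 bp away, was the promoter of Atp5o itself with 5.81 and 5.63.

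Among the genes of ATP synthase, the catalytic beta subunit gene Atp5b had the highest mean with 11.5 in replicate 1 and 7.99 in replicate 2 (chr10:128083121-128083360). In replicate 2 alone Atp5g2, Atp5g1, Atp5c1 and Atp5mpl were higher. Atp5s, which encodes coupling factor B, had 10.5 and 7.58, and Atp5c1 9.57 and 8.19. The catalytic partner of Atp5b, the alpha subunit gene Atp5a1, had 5.26 and 3.76. Its higher replicate was below the lower one of Atp5b. The central-stalk genes Atp5d and Atp5e had 9.02 and 6.06, and 9.88 and 7.87. Of the peripheral stalk, Atp5f1 (subunit b) had 8.02 and 6.60, Atp5h (subunit d) 6.62 and 7.64, and Atp5o (OSCP, which joins the stalk to the catalytic head) 5.81 and 5.63. These were all below Atp5b in both replicates. Subunit c, which forms the rotor ring, is encoded by 3 genes with the same mature protein. Atp5g1 had 10.2 and 8.67, Atp5g2 8.34 and 9.09, and Atp5g3 6.08 and 5.99, so that Atp5g3 lay below the others in both replicates. The lowest means were those of Atp5l, subunit g, with 3.59 and 2.64, and Atp5j, coupling factor 6, with 4.82 and 4.02. The strongest region of Atp5j was shared with Gabpa, which starts on the opposite strand and encodes the ETS factor known from respiratory promoters. The values of Gabpa and Atp5j are therefore the same.

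Most of the promoter regions sat on the start sites. The strongest shared region covered a TSS in 79 of 87 open genes (90.8%), against 77.5% of all open genes. Its median width was 220 bp, against 240 bp. Its centre lay within 100 bp of a TSS in 77 genes (88.5%), against 68.0%, with a median of -24.5 bp, which is upstream, against -32.5 bp. A single shared region within 1 kb was found for 64 genes (73.6%), against 46.5%. The mitochondrial and cytosolic ribosomal genes were similar in position. Their strongest region covered a TSS in 93.6% and 94.9%, and its centre lay within 100 bp in 92.3% and 88.5%. A single region was found for 70.5% and 61.5% of them.

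Regions centred farther than 100 bp from a TSS belonged to 10 genes. At Ndufa11 and Ndufa13 the centre was at -776.5 and -752.5 bp, and the regions were shared with Vmac and with Tssk6 and Yjefn3. Ndufa11 had a second region at -26.5 bp with 8.61 and 6.17. The region over the start of Ndufa13, centred at 187.5 bp, had only 0.869 and 1.08. A further region of Ndufa13, centred at 867.5 bp, had 10.5 and 9.12. Uqcrh had its strongest region at -359.5 bp, shared with Lrrc41, and a region at -1.5 bp with 4.66 and 3.50. The others were Cox7a2l at -270.5, Atp5l at -258.5, Uqcrq at -249.5, Atp5g1 at -210.5, Ndufs8 at -166.5, Ndufs7 at 119.5 and Cox5a at -103.5 bp.

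More than 1 shared region within 1 kb of a start was found for 23 genes. Uqcrh and Atp5j had 4 each, and Ndufa13, Ndufaf3, Cyc1, Atp5d and Atp5g2 had 3. At Atp5d, the delta subunit gene, and Ndufaf3 the first 2 regions were similar, with means of 7.54 and 7.17 and of 7.56 and 7.05. Ndufv3 had a weaker second region, with 1.46 and 0.783, beside a start inside the gene (chr17:31529441-31529620). It was 1 of 15 genes that had 2, with Ndufs1, Ndufa11, Ndufa4, Ndufb9, Uqcrc1, Uqcr10, Cox4i1, Cox5a, Cox6b2, Cox7a2, Cox7a2l, Atp5g3, Atp5h and Atp5l.

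Divergent neighbours were frequent. A protein-coding gene started on the opposite strand within 1 kb in 31 of 87 open genes (35.6%), against 14.6% of all open genes. The share was similar for the mitochondrial ribosomal genes, 37.2%, and lower for the cytosolic ribosomal genes, 17.9%. It was 7 of 17 for ATP synthase and 1 of 12 for complex IV, the 1 being Cox4i1, opposite Emc8 and Gm27021. In 12 genes the TSS nearest to the strongest region was that of another gene. Signal at such regions cannot be divided between the neighbours.

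Footprints of both replicates within 1 kb of a start were found at 87 of the 93 genes, the same 87 that were open, against 63.3% of all autosomal protein-coding genes. Among open genes alone the share was 93.8% over all genes. An open respiratory gene had a median of 4 shared footprints, between 1 and 11, and all open genes also had a median of 4. Ndufa11 and Ndufa13 had 11 each, and Ndufb3, Ndufa4l2, Uqcrc2 and Cox6b1 had 1 each. In total 455 stretches lay in footprints of both, with a median width of 11 bp. Of these 312 (68.6%) were centred within 100 bp of a TSS and 311 were upstream, at a median of -31.5 bp.

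**Figure D4:**
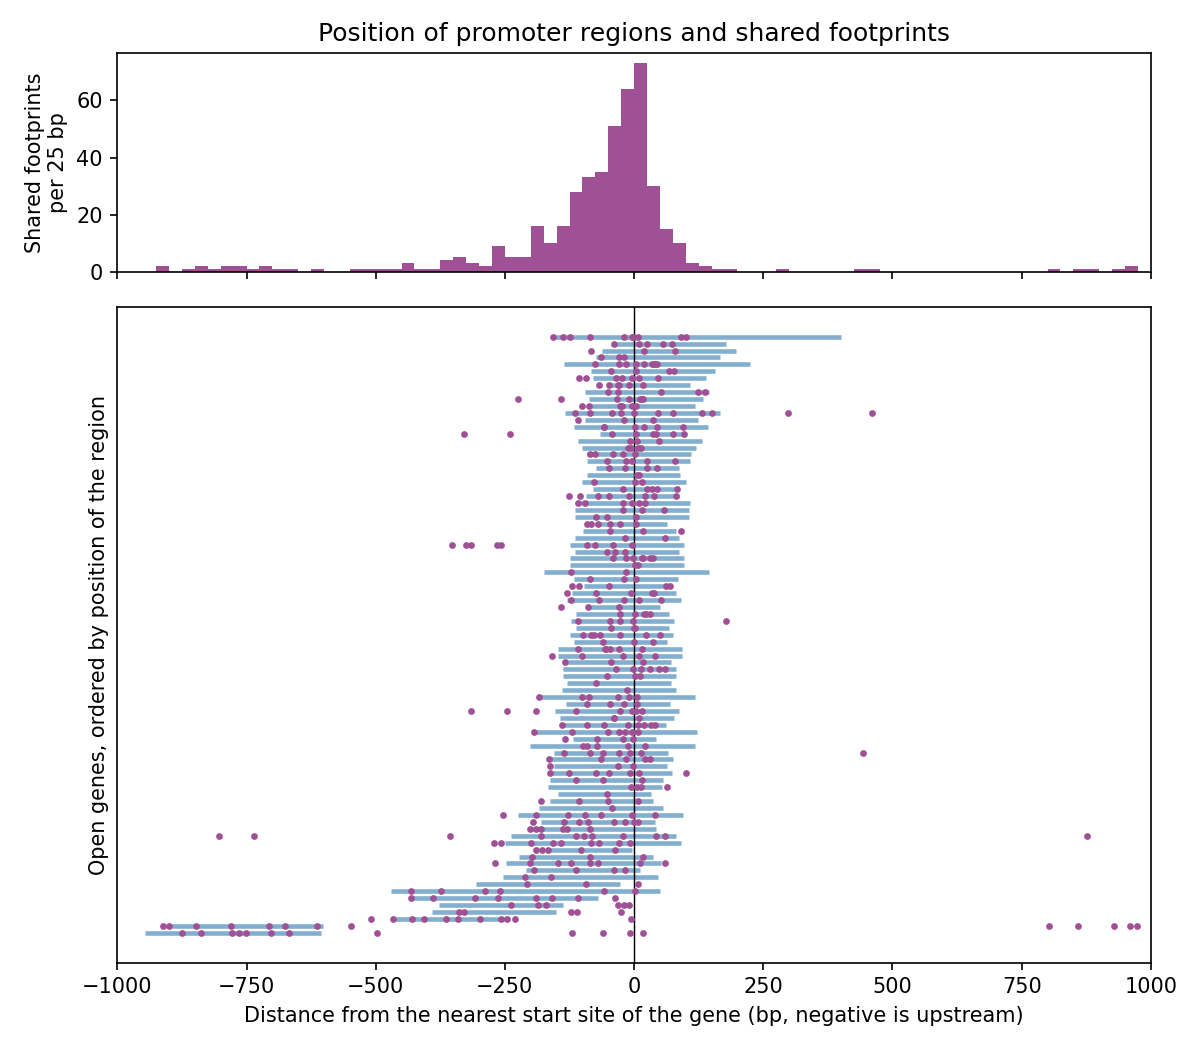
Distance from the nearest start site of the gene (x axis, bp) for the strongest shared region of each of the 87 open genes (lower panel, blue bars, 1 row per gene) and for the centres of shared footprints (purple points, and counts per 25 bp in the upper panel). Regions and footprints pile up just upstream of the start, with medians of -24.5 and -31.5 bp, and the bottom rows hold Ndufa11 and Ndufa13.

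A list of 12 motifs was searched on both strands in the RefSeq promoters (250 bases before to 50 after the start), which were matched for 74 of the 93 genes and 72 of the 87 open ones. The NRF1 core CGCATGCG was found in 12 of 72 open respiratory genes (16.7%), against 3.82% of 11002 open genes and 2.76% of 15878 autosomal promoters. The looser form CGCNTGCG, which includes the core, was found in 28 (38.9%), against 17.4% and 12.5%. The ETS letters CCGGAAG were in 18 (25%, against 17.3% and 12.7%), and the YY1 letters AAGATGGCG in 8 (11.1%, against 2.93% and 2.07%). At least 1 of the last 3 was present in 44 genes (61.1%), against 33.1% of all open genes. SP1/KLF letters, GGGCGG, were less frequent than over all open genes, in 33 genes (45.8%), against 66.3%, but were near the 49.8% of all autosomal promoters. The median GC content was also lower, 58.8% against 61.7%.

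The shorter ERR letters AAGGTCA were in 8 respiratory promoters (11.1%), against 2.78% of open ones and 3.80% of all autosomal ones. These were Atp5e, Atp5g3, Atp5k, Atp5l, Ndufb2, Ndufb4, Ndufs5 and Sdhd. The longer TCAAGGTCA, which includes them, was in Atp5g3 and Sdhd alone. CCAAT, the letters of NFY, was in 32 (44.4%, against 37.9% and 38.6%), TGACGTCA in 5 (6.94%, against 3.34% and 2.56%) and the shorter CRE core TGACG in 25 (34.7%, against 31.5% and 25.3%). The E-box CACGTG was in 6 (8.33%, against 10.1% and 8.22%) and TATAAA in 5 (6.94%, against 6.74% and 12.9%). These shares come from small numbers of genes, and no test was made.

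Matches within the footprints of both replicates were counted over all 87 open genes. The NRF1 core lay in such a footprint at 13 genes (14.9%), against 4.51% of all open genes, and the looser form at 30 (34.5%), against 15.4%. The 13 were Cycs, Uqcr11, Uqcrc1, Cox6a1, Cox6c, Atp5g2, Atp5j, Atp5l, Ndufa8, Ndufa11, Ndufa13, Ndufaf4 and Ndufaf5, so that complexes I, III and IV, cytochrome c and ATP synthase were represented. At Ndufa13 the footprint with the NRF1 core was centred at -780 bp, in the region shared with Tssk6 and Yjefn3. The CRE letters lay in one at 6 genes, Atp5d, Cycs, Ndufa10, Ndufa11, Ndufb2 and Uqcrfs1, or 6.90% against 3.64%. At Ndufa11 that footprint was centred at -764.5 bp, in the region shared with Vmac. The TGACGTCA nearer to the Ndufa11 start, at -158 to -151, was not covered. ETS letters did so at 9 (10.3%, against 7.47%), YY1 letters at 3 (3.45%, against 1.20%), SP1/KLF letters at 36 (41.4%, against 49.1%) and CCAAT at 9 (10.3%, against 10.9%). AAGGTCA did so at 4 genes, Atp5k, Atp5l, Ndufs1 and Uqcrq (4.60%, against 0.399%), and the longer ERR letters at 0.

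**Figure D5:**
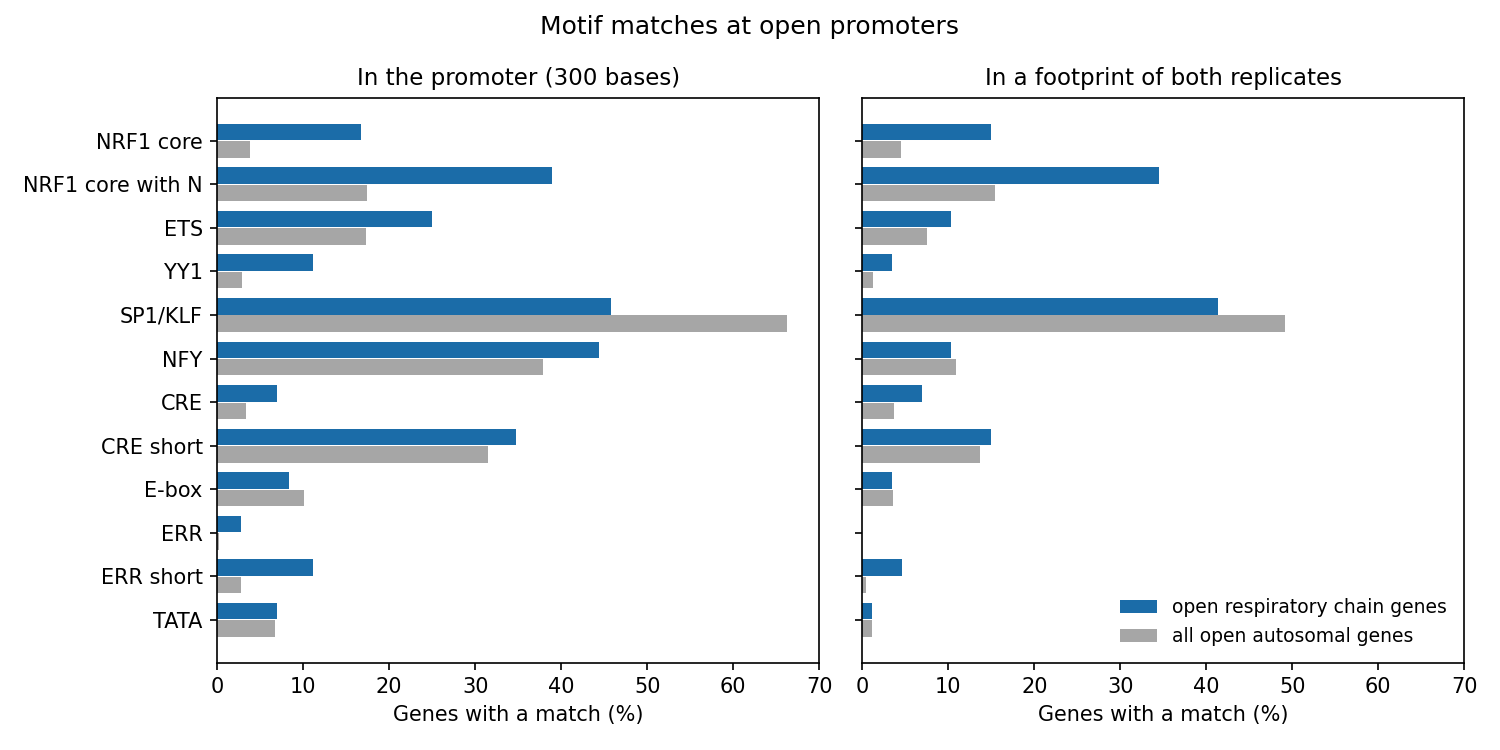
Share of genes (x axis, %) with a match to each of 12 motifs (y axis; "short" marks the shorter core) in the RefSeq promoter (left, 72 open respiratory genes) or in a footprint of both replicates (right, 87), with all open autosomal genes in grey. In footprints a match counts by its midpoint. The blue bars of both NRF1 forms exceed the grey ones in both panels, and those of SP1/KLF fall short of them.

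Among regulators of these genes, all 12 listed were open. Their median signal was 6.49, from Ppargc1a, the inducible coactivator of mitochondrial biogenesis, with 1.47 and 1.10, to Esrra, the ERR alpha gene, with 22.02 and 14.4. Nrf1 had 6.25 and 5.56 and Yy1 11.98 and 11.4. Of 36 assembly factors outside the rule 35 were open, with a median of 6.85, the exception being Sdhaf1, a complex II assembly factor. The 3 X-linked subunits were open at lower signals, between 1.82 and 2.73. They are present in male cells as a single copy, and the part of copy number in these signals was not tested. For 2 of the 3 the TSS nearest to the strongest region was that of another gene.

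Between the replicates Pearson's r of log2 signals was 0.920 across the 87 open respiratory genes, against 0.973 across all 14048 open genes. Genes of 1 library share its depth and scaling and are not independent, so no p is given. Replicate 1 was higher in 73 genes and replicate 2 in 14. After each library was divided by its median over shared regions, the median log2 ratio of replicate 1 to replicate 2 was -0.14, and -0.14 over all open genes too. The SD of the ratio was 0.26 here and 0.30 over all open genes. Which genes differed most depended on the scaling. The 5 largest scaled values were those of Ndufaf8 with -1.01, Cox6b2 with 0.69, Atp5h with -0.60, Uqcrh with -0.55 and Ndufs3 with -0.52. Without scaling they were Cox6b2 with 1.08, Cox7a1 with 0.87, Ndufa3 with 0.70, Ndufa5 with 0.64 and Ndufv3 with 0.63. Measured from the median of all open genes, which removes the scaling, 3 genes lay beyond 2 SDs: Ndufaf8, Cox6b2 and Cox7a1. The share of all open genes beyond 2 SDs is not given here. The 3 genes can therefore not be called unusual.

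The depth of each library was not given in the sources used here. Replicate 1 had 139821 peaks and 331596 footprints, and replicate 2 had 82225 and 200630. Signals were whole multiples, within 0.01 steps, of 0.00521 in replicate 1 and 0.00799 in replicate 2. The weakest promoter peak of an open respiratory gene came to 249 of these steps in replicate 1 and to 173 in replicate 2. Its counting error would be 6.34% and 7.60% if each step stood for a single cut, which the labels do not say.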

How the data were processed

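For each library the deposited files were a looser and a stricter list of peaks, a list of footprints, and false discovery rates (FDRs) along the genome, all in mm10 and made from that library alone, per the file headers of the notes that came with the samples. The peak signal is a density as the authors deposited it, and its scaling is not stated. The FDRs, a kind of q-value, were deposited for stretches under 0.05. Each footprint was deposited with the same value, 0.01, and only its position was used. The aligner, the callers and the depth were not given in the sources used here.

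From these files, peaks of the replicates that overlapped by at least 1 bp were joined into shared regions, using the looser lists. A gene took the strongest shared region within 1 kb of any TSS of GENCODE M21. Distances run from the region's centre, because the lists give no summit. Promoter sequences came from RefSeq (GRCm38.p6), and 74 of them were found unchanged in the genome at hand. Coordinates are 1-based. Signals are given as the mean ± SD of 2 replicates, and no p-value was computed, as there is 1 group. Labels number the libraries as biological replicates.

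The rule for named genes took the isoform sets, the 4 highest and 2 lowest open genes of each complex, the Sdh genes, Cyc1 and Cycs, genes without a shared peak, those farthest from a TSS, those with several regions and the 5 that differed most between replicates. Others were named after their values were seen, and some results that the rule names are not reported here. The members, lists and motifs were chosen with earlier results of these data known. The alternatives were the stricter lists, other windows, TSSs and overlaps, equal numbers of peaks, other scalings, other motif windows and each replicate alone. Python 3.11.15 with numpy 2.4.6, pandas 2.3.3, pysam 0.24.0 and matplotlib 3.10.9 was used, and the assignment of peaks to genes was tested on simulated data.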

Additional observations from a re-analysis of the deposited data

How the results depend on the processing

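No paired analysis was possible because the libraries form 1 group. Over 17 results and 52 alternatives, 38 values stayed within a set limit and 14 moved. The limit was 1.5 times for a count and the SD over open genes for the log2 ratio. For the median signal and distance it was the SD between the values of the 2 replicates. Leaving out a replicate could hardly pass that last limit, because the same values set it. The number of open genes lay between 86 and 89. It was 78 when the region had to be nearest to the gene's own TSS, an alternative chosen after seeing the data, and 87 to 88 without either replicate. The median signal was 6.60 to 7.91 without either replicate. After division by the library median it was 6.51, against 4.23 over all open genes. Those values are in other units than the main one. The median distance of -24.5 bp became -20.5 bp with TSSs of basic transcripts and 0 from the peak's edge, and was -22.5 to -26.5 bp without either replicate. The median log2 ratio of the replicates, -0.14, turned to 0.25 without scaling, here and over all open genes, so that its direction rests on the scaling. Genes with footprints in both replicates numbered 86 to 88.

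Several motif counts fell when the midpoint of the match had to lie in a footprint of both replicates. ETS fell to 9, YY1 to 3, NFY to 9, the shorter CRE core to 13, E-box to 3, ERR to 0, the shorter ERR core to 4 and TATA to 1. In 200 bp at the region's centre E-box fell to 2, ERR to 1 and TATA to 2. Both NRF1 forms, CRE and SP1/KLF stayed within 1.5 times in both settings. The main counts were over 72 open genes with a RefSeq promoter, and both alternatives over all 87 open genes. Footprints were taken within 1 kb of any TSS, so that the counts in footprints are not parts of the main ones.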
